A study of Homo sapiens with 6 samples.

Results

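Keratins are the intermediate filament proteins of epithelial cells, and the 45 genes described here are those of the 18249 in the expression table whose symbol is KRT followed by a number and at most 1 letter, without the keratin-associated proteins. RefSeq annotates 55 such genes, and 10 of them are not among the genes listed. Of the 45, 14 reached 10 in some library, 6 reached 1 but not 10, and 25 stayed under 1 in every library, 5 of these at 0 throughout. The expression values come from 3 RNA-seq libraries of TE-10, a cell line of esophageal squamous carcinoma grown in medium with fetal bovine serum. Knockdown 1 and knockdown 2 are libraries of TE-10 cells stably carrying a short hairpin RNA against METTL3, with hairpins numbered 1 and 2 in the sample titles, and the control is TE-10 with normal METTL3 (1 library each). METTL3 is the enzyme that methylates adenosines of mRNA to N6-methyladenosine (m6A). A separate list gives m6A peaks of TE-10 cells with normal METTL3, from 2 immunoprecipitated libraries and 1 input library. The titles do not state how many clones each hairpin line holds. The knockdown libraries carry different hairpins, so hairpin, line and technical differences between them cannot be told apart.

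A keratin filament is built from pairs of 1 acidic type I and 1 basic or neutral type II keratin, and the genes of each type sit side by side in a cluster, type I on chromosome 17 and type II on chromosome 12, where the type I gene KRT18 also lies. Epithelia are told apart by the pairs they make: KRT8 and KRT18 in simple epithelia, KRT5 and KRT14 in the basal layer of stratified epithelia, KRT4 and KRT13 in the suprabasal layers of the esophagus and other moist mucosa, KRT1 and KRT10 in the drying layers of skin, and KRT6, KRT16 and KRT17 in wounded or fast-growing epithelium. Filaments are anchored at desmosomes and hemidesmosomes by plakin and armadillo proteins.

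The promoters of 3 keratins are shown because they belong to an abundant basal keratin, to the keratin with the largest difference between the knockdown libraries, and to the main keratin of drying skin. RefSeq windows of GRCh38.p14, from 250 bases before to 50 after the annotated start, were matched by symbol for 24 of the 45 keratins. The windows lie on the minus strand at chr12:52520345-52520644 for KRT5, chr12:52814067-52814366 for KRT4 and chr17:40822565-40822864 for KRT10, and capitals mark the letters TATAAA or ATAAAA on either strand, patterns that can overlap each other.
KRT5: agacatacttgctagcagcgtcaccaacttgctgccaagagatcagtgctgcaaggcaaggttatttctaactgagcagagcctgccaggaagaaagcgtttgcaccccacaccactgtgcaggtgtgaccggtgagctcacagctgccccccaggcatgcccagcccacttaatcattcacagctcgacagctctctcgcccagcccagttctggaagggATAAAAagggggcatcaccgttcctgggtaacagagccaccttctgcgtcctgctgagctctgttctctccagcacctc
KRT4: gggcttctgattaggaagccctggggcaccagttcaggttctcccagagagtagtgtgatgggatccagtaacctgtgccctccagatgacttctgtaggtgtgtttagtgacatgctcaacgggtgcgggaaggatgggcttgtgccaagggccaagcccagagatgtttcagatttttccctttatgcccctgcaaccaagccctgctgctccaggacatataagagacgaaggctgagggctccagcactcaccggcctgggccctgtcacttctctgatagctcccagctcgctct
KRT10: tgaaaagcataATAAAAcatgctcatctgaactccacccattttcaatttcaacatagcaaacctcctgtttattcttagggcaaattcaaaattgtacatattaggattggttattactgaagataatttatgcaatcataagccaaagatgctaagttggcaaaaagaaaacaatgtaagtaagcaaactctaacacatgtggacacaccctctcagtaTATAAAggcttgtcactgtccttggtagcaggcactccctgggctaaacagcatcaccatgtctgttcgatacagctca
TATAAA was found in 12 of the 24 keratin windows, KRT10 among them, and in 11.5% of all 35116 RefSeq windows. ATAAAA was found in 15 of the 24, KRT5 and KRT10 among them, and in 16% of all windows. Neither was in the KRT4 window. Apart from KRT5 and KRT10, every keratin with either pattern stayed under 1 in all libraries. KRT6A, KRT13, KRT14, KRT16 and KRT17 were among those without a window, so these shares do not describe the abundant keratins. The GC-rich letters GGGCGG, searched on both strands, were in none of the 3 windows, in 5 of the 24 keratin windows and in 45% of all windows.

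METTL3 had values of 8.35 in knockdown 1 and 4.99 in knockdown 2, against 20.81 in the control. The 10 squamous epithelial markers (TP63, SOX2, DSG3 and others) were all listed, with summed values of 1624.15 in knockdown 1, 1198.69 in knockdown 2 and 1759.9 in the control, most of it S100A2. In knockdown 2, 4 of the 10 were lower than the control by at least 1.5-fold, beside 4.87% of all genes tested. By any amount 8 were lower in both knockdown libraries, beside 30.4%, and 0 higher, beside 28%. DSG3 was at 18.18 in knockdown 1, 7.93 in knockdown 2 and 18.37 in the control. All 3 libraries thus carried the markers of the labelled tissue, at unequal levels. The highest of them were S100A2, a calcium-binding protein (1058.34 in knockdown 1, 703.5 in knockdown 2 and 1127.92 in the control), and PERP, a desmosomal protein (173.84 in knockdown 1, 210.56 in knockdown 2 and 220.62 in the control). Of the other cell types, the 10 fibroblast markers summed to between 3.67 and 4.01, with COL1A1 highest (3.6 in knockdown 1, 3.59 in knockdown 2 and 3.34 in the control), FAP next (0.29 in knockdown 1, 0.07 in knockdown 2 and 0.2 in the control) and THY1 at 0 in all libraries. The 8 immune markers summed to 9.04 in knockdown 1, 11.78 in knockdown 2 and 19.98 in the control, nearly all of it CD68 (7.88 in knockdown 1, 9.93 in knockdown 2 and 18.81 in the control), a lysosomal protein that epithelial lines also make, with LYZ next (0.52 in knockdown 1, 0.62 in knockdown 2 and 0.49 in the control) and MS4A1 at 0 throughout. The 5 endothelial markers summed to 0.37 in knockdown 1, 0.36 in knockdown 2 and 1.22 in the control, with VWF and CDH5 highest, neither above 0.37 in any library. Only 3 of 8 glandular markers were listed, with sums of 0.12 in knockdown 1, 6.13 in knockdown 2 and 0.22 in the control, which in knockdown 2 was the intestinal transcription factor CDX2 (0 in knockdown 1, 6.01 in knockdown 2 and 0.07 in the control), with LGALS4 next (0.11 in both knockdown libraries and 0.15 in the control). The unit of the values is not stated by the authors. Among genes with a genomic length over 20000 bases, 23.3% to 29.6% of the values above 0 and under 0.6 were under 0.045. Among genes under 1000 bases the share was 5.71% to 14%, which rests on only 2 to 6 values per library. The lowest values were thus smaller in longer genes, as values scaled by length would be, though genomic length includes introns. Levels of different keratins are compared below as if per length, which the table does not state.

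Keratins took 0.751% of the summed expression of knockdown 1, 0.534% in knockdown 2 and 0.754% in the control. Their summed value was 4638.01 in knockdown 1 and 3351.82 in knockdown 2, against 4586.32 in the control, so the pool was 1.01 times the control in knockdown 1 and 0.731 times in knockdown 2. In this bulk RNA, fewer cells of a type and less RNA per cell cannot be told apart. The control pool was led by KRT17 (25.5% of the keratin sum), KRT6A (19.4%), KRT5 (13.8%), KRT19 (11.1%), KRT8 (9.82%), KRT14 (9.8%) and KRT18 (6.14%). KRT17 ranked 85th among all genes listed in the control and KRT18 302nd. Type I keratins held 52.4% of the pool in knockdown 1 and 55.3% in knockdown 2, against 54% in the control. The type II sum over the type I sum was 0.91 in knockdown 1, 0.808 in knockdown 2 and 0.853 in the control.

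**Figure D1:**
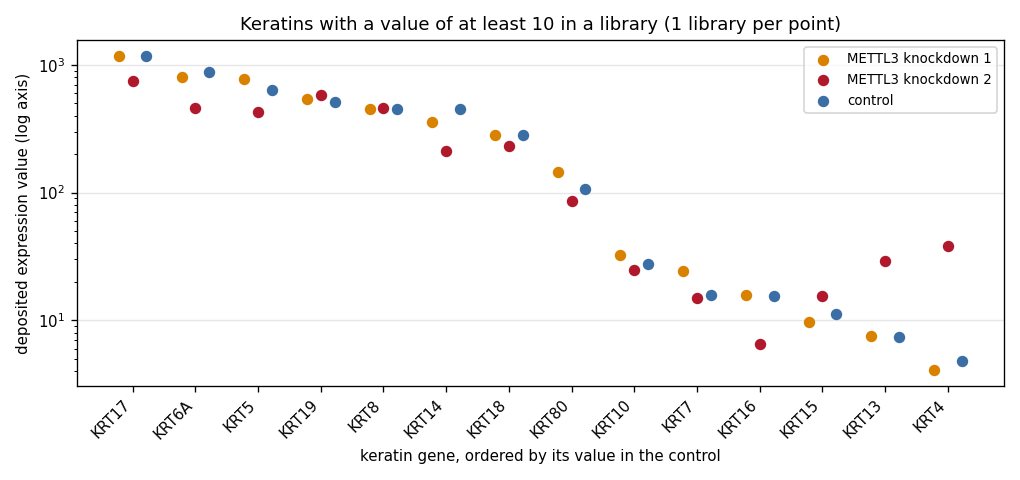
Deposited expression value on a log axis of the 14 keratins that reached 10 in at least 1 library, 1 point per library. Knockdown 2 lies under the other libraries for KRT17, KRT6A, KRT5, KRT14, KRT18, KRT80, KRT10, KRT7 and KRT16. It lies above them for KRT19, KRT8, KRT15, KRT13 and KRT4, with small gaps for KRT8 and KRT7.

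The stress keratins were lower than the control in knockdown 2, while in knockdown 1 all but KRT6B were close to it. Their sum was 1996 in knockdown 1 and 1221.21 in knockdown 2, against 2081.88 in the control, which is 0.959 times the control in knockdown 1 and 0.587 times in knockdown 2. KRT17, the type I keratin of wounded and tumour epithelium, was at 1177.9 in knockdown 1 and 749.17 in knockdown 2, against 1171.05 in the control. KRT6A, its type II partner, was at 798.22 in knockdown 1 and 462.91 in knockdown 2, against 887.74 in the control. Both were lowest in knockdown 2, while in knockdown 1 they were at 1.01 and 0.899 times the control. KRT16, a type I keratin of activated epithelium, was at 15.65 in knockdown 1 and 6.52 in knockdown 2, against 15.61 in the control. KRT6B, a near-identical copy of KRT6A, was at 3.29 in knockdown 1 and 1.78 in knockdown 2, against 6.44 in the control, and was the keratin lower in both knockdown libraries by at least 1.5-fold on the log2(value + 1) scale. KRT6C stayed near 1, at 0.94 in knockdown 1 and 0.83 in knockdown 2, against 1.04 in the control. KRT6A, KRT6B and KRT6C share long stretches of sequence, as do KRT14, KRT16 and KRT17 with each other and with nearby pseudogenes, and how the authors' counting split such reads is not stated, so the low values of KRT6B and KRT6C beside the abundant KRT6A are uncertain.

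The basal pair differed in its members. KRT5 was at 779.09 in knockdown 1 and 429.18 in knockdown 2, against 633.07 in the control, so the knockdown libraries lay on either side of the control. KRT14, its partner, was at 357.39 in knockdown 1 and 210.86 in knockdown 2, against 449.63 in the control, lower in both. KRT5 over KRT14 was therefore 2.18 in knockdown 1 and 2.04 in knockdown 2, against 1.41 in the control, a ratio in which gene length cancels between libraries. KRT15, another basal type I keratin often linked to quiescent basal cells, was at 9.67 in knockdown 1 and 15.4 in knockdown 2, against 11.21 in the control, and unlike KRT5 and KRT14 was highest in knockdown 2. The basal sum was 1.05 times the control in knockdown 1 and 0.599 times in knockdown 2.

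The simple epithelial keratins were close to the control in both knockdown libraries. KRT8 was at 449.63 in knockdown 1 and 456.63 in knockdown 2, against 450.52 in the control. KRT18, its partner, was at 283.79 in knockdown 1 and 229.96 in knockdown 2, against 281.8 in the control. KRT19, a type I keratin that lacks the tail domain, was at 542.28 in knockdown 1 and 586.46 in knockdown 2, against 509.45 in the control. KRT8 and KRT19 were thus between 0.998 and 1.15 times the control in either library, and KRT18 was at 0.816 times the control in knockdown 2. KRT7, of ducts and glands, was at 24.21 in knockdown 1 and 15 in knockdown 2, against 15.87 in the control, so that it was 1.53 times the control in knockdown 1 and close to it in knockdown 2. Of the rarer members KRT23 was at 1.07 in knockdown 1 and 0.4 in knockdown 2, against 0.69 in the control, and KRT20, of intestinal epithelium, reached 0.03 only in knockdown 2. With 1300.98 in knockdown 1, 1288.48 in knockdown 2 and 1258.33 in the control, the summed simple keratins made up 28.1% of the pool in knockdown 1, 38.4% in knockdown 2 and 27.4% in the control. KRT8 over KRT18 was 1.58 in knockdown 1 and 1.99 in knockdown 2, against 1.6 in the control. KRT5 over KRT8, a basal over a simple keratin, was 1.73 in knockdown 1 and 0.94 in knockdown 2, against 1.41 in the control, and KRT14 over KRT19 was 0.659 in knockdown 1 and 0.36 in knockdown 2, against 0.883 in the control. KRT8 and KRT18 have many processed pseudogenes in the human genome, which can take or add reads.

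**Figure D2:**
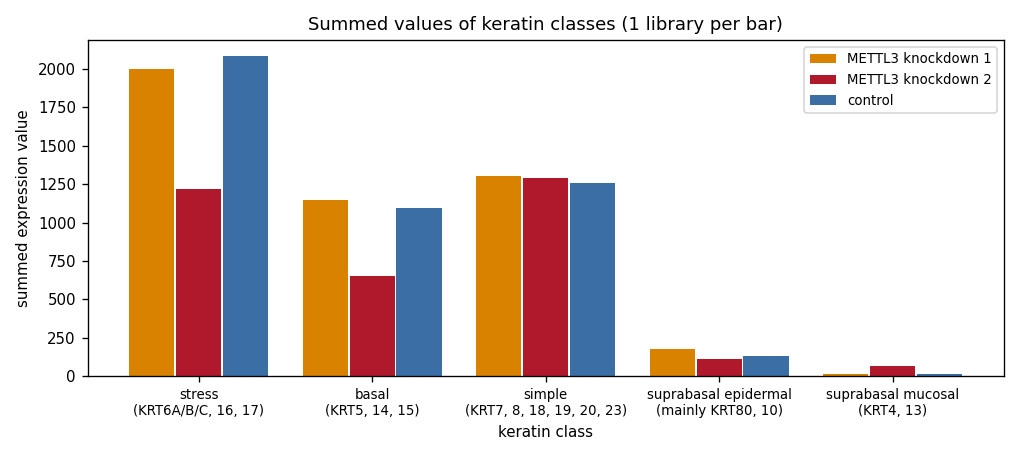
Summed deposited values of 5 keratin classes, 1 bar per library, with the axis from 0. Stress and basal keratins are lowest in knockdown 2 (1221.21 and 655.44), simple keratins lie between 1258.33 and 1300.98 in all libraries, and KRT4 with KRT13 are highest in knockdown 2 (67.2).

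The mucosal suprabasal pair stood out in knockdown 2. KRT4, the type II keratin of esophageal suprabasal cells, was at 4.06 in knockdown 1 and 37.99 in knockdown 2, against 4.81 in the control. This is 0.844 times the control in knockdown 1 and 7.9 times in knockdown 2. KRT13, its type I partner, was at 7.55 in knockdown 1 and 29.21 in knockdown 2, against 7.35 in the control, or 1.03 times the control in knockdown 1 and 3.97 times in knockdown 2. Both genes of the pair were high in the same library, and knockdown 1 and the control differed little. KRT4 over KRT13 was 0.538 in knockdown 1 and 1.3 in knockdown 2, against 0.654 in the control. Even in knockdown 2 the pair made up 2% of the keratin pool, against 0.25% in knockdown 1 and 0.265% in the control.

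Keratins of the suprabasal epidermal list were present mainly as KRT80 and KRT10. KRT80, a type II keratin found near desmosomes, was at 144.14 in knockdown 1 and 86.31 in knockdown 2, against 106.62 in the control. KRT10 was at 32.74 in knockdown 1 and 24.65 in knockdown 2, against 27.36 in the control. Both were highest in knockdown 1 and lowest in knockdown 2. KRT1, the usual partner of KRT10, was at 0.1 in knockdown 1, 0.15 in knockdown 2 and 0.09 in the control, and KRT2 was listed at 0 in all libraries. Among hair keratins, KRT81 was at 3.13 in knockdown 1 and 4.67 in knockdown 2, against 3.16 in the control, and KRT86 at 1.34 in knockdown 1 and 0.93 in knockdown 2, against 0.96 in the control, both of them type II keratins of the hair shaft whose sequences are closely alike. KRT222, a keratin-like gene of the type I cluster, was listed at 0 in knockdown 1 and in the control and at 1.17 in knockdown 2. The 25 keratins under 1 included the other hair shaft and inner root sheath genes, and the highest of them was KRT83 at 0.89 in knockdown 1 and 0.08 in knockdown 2, against 0.54 in the control. These values lie close to 0 and no order is read from them.

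In limma's fit of both knockdown libraries against the control, over the 12375 genes that reached 1 in some library, none of the 20 keratins tested passed a Benjamini-Hochberg adjusted p of 0.05, and 0% of all genes did. The lowest adjusted p of a keratin was 1, and 1 keratin, KRT6B, and 162 genes in all had an unadjusted p under 0.05. The log2 difference was -1.11 (SE 0.362) for KRT6B, -0.71 (SE 0.375) for KRT14, -0.55 (SE 0.389) for KRT6A, -0.57 (SE 0.47) for KRT16 and -0.32 (SE 0.362) for KRT17. For KRT4 it was 1.27 (SE 1.07) and for KRT13 0.94 (SE 0.688), with errors as large as those because the knockdown libraries disagreed. Leaving out knockdown 2 turned the sign for KRT4, KRT5, KRT8, KRT15, KRT16, KRT17 and KRT18, and leaving out knockdown 1 that for KRT7, KRT10 and KRT80, 10 of the 14 keratins that reached 10. For KRT8, KRT16, KRT17 and KRT18 the turned sign rests on knockdown 1 differences of -0.0028, 0.0035, 0.0084 and 0.01, about level with the control. In the fit of both knockdown libraries the log2 difference was 0.01 (SE 0.266) for KRT8 and 0.15 (SE 0.271) for KRT19. The fit has 1 residual degree of freedom, from the knockdown libraries alone, and 4.94 prior degrees of freedom from the variance trend over all genes. It lends this spread to the single control, so a p above the threshold does not show that keratins were unchanged.

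Counted without a test at 1.5-fold on the log2(value + 1) scale, 1 keratin (KRT6B) of the 20 was lower in both knockdown libraries, where 0.752% of all 12375 genes were, and 0 were higher in both, where 0.525% were. In knockdown 1 against the control, 1 keratin was lower (KRT6B; 2.54% of all genes) and 0 were higher (1.79%). In knockdown 2 against the control, 5 keratins were lower (KRT6B, KRT16, KRT14, KRT6A and KRT17), or 25% of those tested, beside 4.87% of all genes. In the same comparison 3 were higher (KRT4, KRT13 and KRT222), or 15%, beside 8.7% of all genes. Just inside the threshold lay KRT17, at a log2 difference of -0.64, and just outside it KRT5, at -0.56. With quantile normalization the split over all genes in knockdown 2 was 861 lower and 935 higher, in place of 603 and 1077, and 6 keratins were lower and 3 higher. Both comparisons share the single control library.

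The contrast between the knockdown libraries held more keratins. In knockdown 2 against knockdown 1, which uses no control, 8 keratins were lower by at least 1.5-fold (KRT16, KRT5, KRT6A, KRT14, KRT80, KRT7, KRT17 and KRT6B), or 40% of those tested, beside 5.21% of all genes. In the other direction 4 were higher (KRT4, KRT13, KRT222 and KRT15), or 20%, beside 9.87% of all genes. Across all genes this comparison gave 645 lower and 1221 higher, and 932 and 979 with quantile normalization, where 10 keratins were lower and 4 higher. The median log2 difference of knockdown 2 minus knockdown 1 was -0.35 over the 20 keratins and 0.03 over all genes tested. Against the control keratins had a median of 0.0059 in knockdown 1, beside -0.014 over all genes, and of -0.15 in knockdown 2, beside 0.000555 over all genes.

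**Figure D3:**
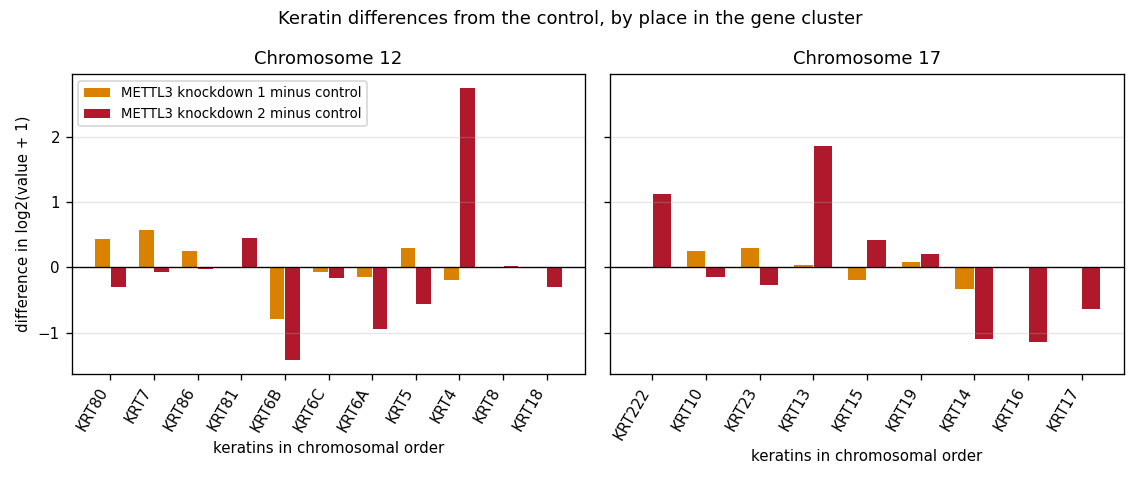
Difference in log2(value + 1) from the control for the 20 keratins tested, as 1 bar for each knockdown library, in RefSeq order along chromosomes 12 and 17 without scale. In the chromosome 17 panel KRT13, KRT15 and KRT19 are higher in knockdown 2 and KRT14, KRT16 and KRT17 lower.

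In RefSeq order, some neighbouring keratins lay on the same side of the control and others did not. Among the type I genes of chromosome 17, the neighbours KRT13, KRT15 and KRT19 were higher than the control in knockdown 2, while KRT14, KRT16 and KRT17, which also follow each other, were lower. The other tested type I genes of that chromosome were at log2 differences of 1.12 for KRT222, -0.14 for KRT10 and -0.27 for KRT23 in knockdown 2. In knockdown 1, KRT13 and KRT19 were higher and KRT15 lower, and KRT16 and KRT17 were within 0.01 of the control on the log2 scale. On chromosome 12 the neighbours KRT6B, KRT6C and KRT6A were lower than the control in both knockdown libraries, KRT6C with values near 1 throughout. KRT5, next to them, was higher in knockdown 1 and lower in knockdown 2. How reads shared within KRT6A, KRT6B and KRT6C, or within KRT14, KRT16 and KRT17, were placed is not stated, so a like direction within these groups is uncertain. At the start of that cluster KRT80, KRT7 and KRT86 were at 0.43, 0.58 and 0.26 in knockdown 1 and at -0.30, -0.08 and -0.02 in knockdown 2, and KRT81 after them was at -0.01 in knockdown 1 and 0.45 in knockdown 2. KRT4 stood at 2.75 in knockdown 2, while KRT8 and KRT18, next to each other at the end of the cluster, were at 0.02 and -0.29. The order was looked at after the values were known and has no test.

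Of the genes that anchor keratin filaments, most were lower than the control in both knockdown libraries by any amount, and some by at least 1.5-fold in knockdown 2. Of 20 linkers and desmosomal anchors tested, 0 passed limma's test, and against the control 8 were lower by at least 1.5-fold in knockdown 2 (beside 4.87% of all genes) and 0 were higher (beside 8.7%). The list's median log2 difference was -0.09 in knockdown 1 and -0.49 in knockdown 2. By any amount, 16 of the 20 were lower in both knockdown libraries and 0 higher, beside 30.4% and 28% of all genes. Of the 20 keratins tested 4 were lower in both and 2 higher. Both differences share the single control library. COL17A1, the hemidesmosome collagen, was at 61.16 in knockdown 1 and 27.3 in knockdown 2, against 84.86 in the control, and ITGA6, the laminin-binding integrin of the same junction, at 15.37 in knockdown 1 and 10.86 in knockdown 2, against 21.71 in the control. ITGB4, which pairs with ITGA6 and binds the plakins that hold basal keratins, was at 130.93 in knockdown 1 and 69.14 in knockdown 2, against 116.24 in the control. JUP, plakoglobin of the desmosome, was at 190.21 in knockdown 1 and 146.87 in knockdown 2, against 191.51 in the control. All 4 were lowest in knockdown 2, and ITGB4 was highest in knockdown 1, as KRT5 was. COL17A1 and ITGA6 were named for a large difference of like sign in both libraries.

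Transcription factors known to act on keratin genes had a median closer to the control in knockdown 2 than the linkers had. Of the 20 tested, 0 passed limma's test, and 4 were lower than the control by at least 1.5-fold in knockdown 2 (beside 4.87% of all genes) and 1 was higher (beside 8.7%). Their median log2 difference was -0.10 in knockdown 1 and -0.18 in knockdown 2. TP63, the master regulator of stratified epithelium that acts on KRT5 and KRT14, was at 23.54 in knockdown 1 and 19.5 in knockdown 2, against 31.89 in the control. SOX2, its partner in squamous cells, was at 141.05 in knockdown 1 and 114.16 in knockdown 2, against 160.64 in the control. Both were lower in both libraries, which the naming rule required of TP63. Of the 20 factors tested, 9 were lower in both by any amount, beside 30.4% of all genes, and 1 was higher, beside 28%. JUN, an AP-1 subunit, was at 17.47 in knockdown 1 and 25.63 in knockdown 2, against 13.7 in the control, and JUNB at 64.92 in knockdown 1 and 47.23 in knockdown 2, against 58.22 in the control.

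Other intermediate filament genes also went both ways in knockdown 2. Of 10 tested, 0 passed limma's test, and against the control 4 were higher by at least 1.5-fold in knockdown 2 (beside 8.7% of all genes) and 1 was lower (beside 4.87%). VIM, the filament of mesenchymal and many cultured cells, was at 88.05 in knockdown 1 and 311.17 in knockdown 2, against 87.02 in the control. The other 3 higher genes, named after their values were seen, encode neuronal filaments: INA was at 0.03 in knockdown 1, 4.45 in knockdown 2 and 0 in the control, NEFL at 0.01 in knockdown 1, 4.4 in knockdown 2 and 0 in the control, and NEFM at 0 in knockdown 1, 1.91 in knockdown 2 and 0 in the control. Of the other neuronal filaments PRPH was at 2.6 in knockdown 1, 2.83 in knockdown 2 and 2.63 in the control, and NEFH at 0 in knockdown 1, 0.01 in knockdown 2 and 0.03 in the control. LMNA, the nuclear lamin of differentiated cells, was at 127.62 in knockdown 1 and 77.49 in knockdown 2, against 127.74 in the control. Knockdown 2, in which the sums of basal and of stress keratins were low, is thus also the library with the highest VIM, INA, NEFL, NEFM and CDX2. The part of these genes in the keratin differences was not tested.

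**Figure D4:**
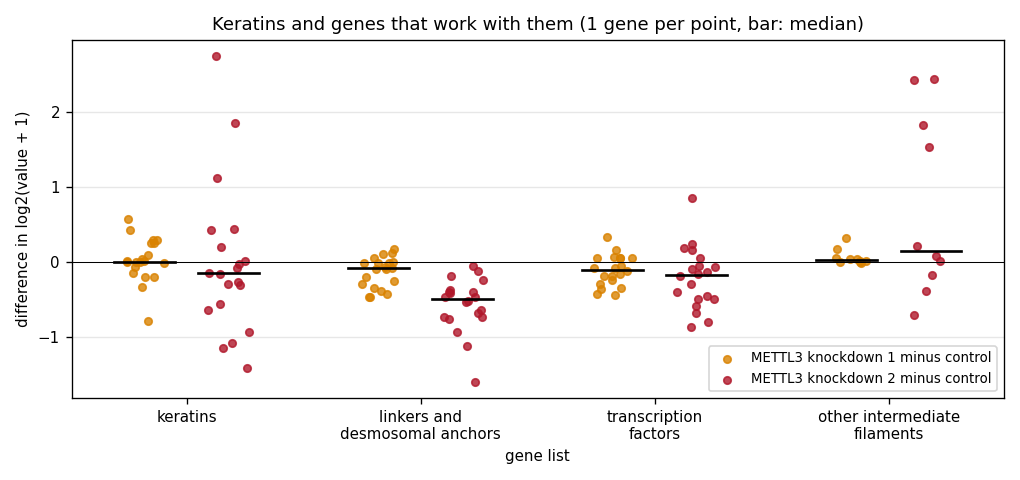
Difference in log2(value + 1) from the control for each tested gene of 4 lists, knockdown 1 left of knockdown 2, with a bar at the median. In knockdown 2 the keratins spread from -1.42 for KRT6B to 2.75 for KRT4, while linkers and anchors lie around a median of -0.49.

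The m6A peak list annotated 14 of its 15940 peaks to keratins, in 8 of the 45 genes. An m6A peak marks a stretch of RNA enriched by the antibody, most often in long internal exons and near the stop codon. Coordinates are those of the deposited list. The processing notes name hg38, but the keratin peaks do not fall at the RefSeq GRCh38 positions of their genes, so they are not read as hg38 positions, and no sequence was read at them. Of the keratin peaks 5 were annotated to 5' UTRs, 1 to a coding exon, 1 to a 3' UTR and 7 to introns, or 35.7%, 7.14%, 7.14% and 50%, beside 11.6%, 34.1%, 21.5% and 23.5% of all peaks. With 14 peaks these shares are a description.

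Exon or UTR peaks were listed for 6 keratins. KRT80 had 3 peaks, 1 in the 5' UTR at chr12:52585613-52585852, 52 bases from the annotated start, 1 in an intron at chr12:52568850-52569141 and 1 in the 3' UTR at chr12:52564775-52565205. KRT6A had a 5' UTR peak at chr12:52886891-52887100 and KRT6B a coding exon peak at chr12:52845630-52845915, 186 and 138 bases from their starts. KRT16 had a 5' UTR peak at chr17:39768891-39769095 and KRT13 at chr17:39661704-39661929, 86 and 49 bases from their starts, and KRT23 had a 5' UTR peak at chr17:39092808-39093018. All these genes are on the minus strand. How reads shared within KRT6A, KRT6B and KRT6C, or within KRT14, KRT16 and KRT17, were placed is not stated. The peaks of KRT6A, KRT6B and KRT16 are therefore uncertain as to gene. Of the 7 exon or UTR peaks of keratins, 5 lay within 200 bases after the annotated start, beside 11.9% of the 10694 exon or UTR peaks of all genes. The KRT80 peak was the sole 3' UTR peak of a keratin.

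**Figure D5:**
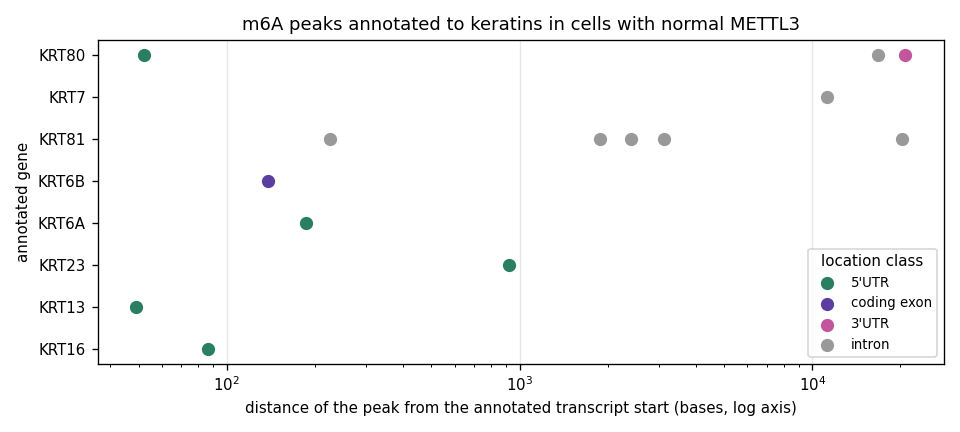
Distance from the annotated transcript start, on a log axis in bases, of the 14 m6A peaks annotated to 8 keratins, coloured by location class. The peaks of KRT6A, KRT6B, KRT13 and KRT16 and the 5' UTR peak of KRT80 lie 49 to 186 bases from the start.

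Of the 8 keratins at 100 or more in the control, KRT6A and KRT80 had an exon or UTR peak, or 25%, beside 19.4% of all genes at that level, so the share among abundant keratins was near that of other abundant genes. KRT17, KRT5, KRT19, KRT8, KRT14 and KRT18 had no peak of any class. Of the 9 keratins at 1 to 100 in the control, KRT13, KRT6B and KRT16 had one, or 33.3%, beside 45.5% of all genes in that range, and over all 45 keratins the share was 13.3%, beside 31.5% of all genes listed. The list has no score, so an absent peak is not a measure of low methylation. The 2 remaining genes had intron peaks only. KRT7 had 1, at chr12:52638084-52638317, on the plus strand. KRT81 had 5, from 226 to 20247 bases from the start of the annotated transcript, and since RefSeq places KRT81 inside the span of KRT86, these peaks cannot be given to 1 of the 2 genes.

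Keratins with and without an exon or UTR peak were found on both sides of the control. With a peak, KRT6A, KRT6B and KRT16 were lower in knockdown 2 and KRT13 higher, at log2 differences of -0.94, -1.42, -1.14 and 1.86, and KRT80 was at 0.43 in knockdown 1 and -0.30 in knockdown 2. Without one, KRT14, KRT17 and KRT5 were at -1.09, -0.64 and -0.56 in knockdown 2 and KRT4 at 2.75. The grouping of KRT6A, KRT6B, KRT16, KRT14 and KRT17 depends on how shared reads were placed. Peaks were called in cells with normal METTL3 only, and methylation after knockdown was not measured.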

How the data were processed

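The authors deposited an expression signal per gene for 3 RNA-seq libraries, made with TopHat2 and HTSeq per the submitters' processing notes, which also name MACS2 for the immunoprecipitations; the step from reads to these values, and whether immunoprecipitations were pooled, are not stated in the labels or headers. Other deposited values used, as per the file headers, are peak positions and distances to the transcript start. Libraries were stranded and polyadenylated per the labels' protocols. The depth of the libraries is unknown, and values carry no counting interval. Values were transformed to log2(value + 1), which understates differences of low genes, and genes with at least 1 in at least 1 library were fitted genome-wide with limma 3.58.1 (R 4.3.3), with a variance trend and Benjamini-Hochberg adjustment. The procedure was tested on simulated data with differences larger than any keratin's here, so its recovery of smaller differences was not tested. Tables and figures used Python 3.11.15, pandas 2.3.3, numpy 2.4.6 and matplotlib 3.10.9. The members and gene lists were chosen with earlier results of these data known. Keratins reaching 10 are given in full. From other lists, the 2 highest members were named, and up to 2 with the largest difference of like sign in both knockdown libraries among those reaching 10. Alternatives were the pseudocount, the filter, scaling, the trend and leaving out a knockdown library.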

Additional observations from a re-analysis of the deposited data

How the results depend on the processing

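No keratin passed limma's adjusted p under any of the 6 alternatives to the fit. The 14 keratins reaching 10 kept the direction of their log2 difference in all 84 values from refits by pseudocount, filter, scaling or trend. The filter and the trend leave this difference as it was, so only the pseudocount and the scaling could have changed its direction. With 1 knockdown library left out, 10 of 28 values had the opposite sign, 7 of them without knockdown 2. Those of KRT8, KRT16, KRT17 and KRT18 lay about level with the control. The counts in both knockdown libraries depend on the choices. In the main analysis 1 keratin was lower, beside 0.752% of all genes. With a mean value of at least 5, which removes KRT6B, it was 0, and at a 1.2-fold threshold added after seeing the data 2. No share of all genes is given for these 2 settings. Leaving out 1 knockdown library gave 1 to 5 lower and 0 to 3 higher keratins, the larger counts without knockdown 1. These are the counts of the library that remains. Beside them, 4.87% of all genes were lower and 8.7% higher in knockdown 2, and 2.54% lower and 1.79% higher in knockdown 1. The knockdown mean of the summed keratin value over the control was 0.871, and 0.872 with median-of-ratios scaling and 0.888 without KRT17. Keratins lower in knockdown 2 than in knockdown 1 numbered 7 to 10 and those higher 3 to 4 over the alternatives. Of all 12375 genes, 645 to 932 were lower and 979 to 1221 higher under the main analysis and the 2 other scalings. Keratins with an exon or UTR peak numbered 6, and 2 with coding exons and 3' UTRs only. No paired analysis was possible because the control has 1 library without a number. With 1 library for each hairpin and 1 control, no difference of a single knockdown library has a replicate, and depth is unknown, so the lowest values have no stated precision.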
